A study of Drosophila melanogaster with 62 samples.

Results

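The 5′ end and the 3′ end of *dac*, marked by PRE2 and by gypsy2, were used as a pair of viewpoints in the same wild-type (WT) leg disc libraries, and their contacts are compared here. The series holds 62 samples of *Drosophila melanogaster*, 24 of them labelled 4C-seq. The 6 libraries described here were chosen as all WT leg disc 4C-seq libraries counted from both viewpoints, 3 from pupal leg discs and 3 from larval leg discs, which gave 12 columns of counts. The genotype label is wild type in all 6, the flies were grown at 20°C on standard medium, and no allele, transgene, treatment or age is given. The labels number 3 samples per stage and do not say whether they came from separate dissections, so every p-value measures the spread between these samples, which may be technical. 4C-seq counts give no RNA level, so the labelled tissue could not be checked against marker genes.

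4C-seq (circular chromosome conformation capture with sequencing) measures, in fixed nuclei, how often other pieces of the genome become joined to 1 selected piece, called the viewpoint. Counts fall steeply with distance from a viewpoint, and a change of that fall at one place, or a peak on top of it, is how boundaries of contact domains and chromatin loops are usually read. *dac* encodes Dachshund, a nuclear protein that patterns the middle segments of the leg, and lies in a chromatin domain repressed by Polycomb group proteins in cells that do not use it. The domain holds a pair of Polycomb response elements (PREs), DNA elements where these proteins are recruited. PRE2 is at the start of *dac*, and PRE1 is in an intron of the neighbouring gene *CG5888*.

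The viewpoints were taken as the bin of 1 kb with the most counts in all 6 libraries. The PRE2 viewpoint bin is chr2L:16487001-16488000 of dm6, and starts about 1 kb upstream of the annotated start of *dac* (FBgn0005677, 16466512 to 16485998, minus strand). The gypsy2 viewpoint bin is chr2L:16465001-16466000, whose last base is 512 bp from the annotated 3′ end of *dac*. It is named after an insertion of the gypsy insulator that other libraries of the series carry and these do not. The viewpoints are 22 kb apart, with the gypsy2 viewpoint on the left, the side of lower coordinates and of PRE1. Each viewpoint bin and 5 kb on either side of it were left out of every column, which removed *Nepl8*, a gene of the neprilysin-like family, and all but 11 bins of *dac*.

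The reference sequences of both PREs are shown because the comparison turns on them: PRE2 lies inside the left-out stretch of its own viewpoint, and PRE1 is the distal region that both viewpoints can contact. Shown are the stretches that the study's qPCR primers amplify, read from the dm6 reference (RefSeq release 6), with copies of GAGAG or its complement CTCTC, a motif of the GAGA factor GAF, in capitals. The PRE2 stretch is chr2L:16486192-16486382, plus strand, in no annotated gene. The PRE1 stretch is chr2L:16422975-16423109, plus strand, in an intron of *CG5888* (FBgn0028523).
PRE2: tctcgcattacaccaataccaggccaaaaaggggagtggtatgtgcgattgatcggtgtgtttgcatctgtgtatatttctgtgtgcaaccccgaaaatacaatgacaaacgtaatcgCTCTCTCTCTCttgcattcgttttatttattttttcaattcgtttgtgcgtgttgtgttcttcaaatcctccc
PRE1: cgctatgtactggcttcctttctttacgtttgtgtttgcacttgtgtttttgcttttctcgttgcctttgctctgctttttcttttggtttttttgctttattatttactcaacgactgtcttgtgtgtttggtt
The PRE2 stretch held 4 overlapping copies of the motif over both strands. Of the 123108 stretches of 191 bp into which 2L was cut, 20.3% held at least 1 copy and 0.738% held at least as many. The PRE1 stretch held 0 copies, against 14.8% of stretches of 135 bp with at least 1. These primer products are only parts of the PREs, and the study reports GAF binding at both elements. The counts therefore do not describe either PRE as a whole.

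The pupal columns held 9531010 to 13791311 counts from PRE2 and 13288225 to 18297507 from gypsy2, and the larval columns 2274115 to 2450581 from PRE2 and 3997998 to 4811772 from gypsy2. Depth is therefore confounded with stage. The 6-kb window on PRE1 held at least 39078 counts in each column, a counting error of at most 0.506% if every count were independent. Any removal of PCR copies was not stated, so the true counting error is unknown and may be larger. Counts were given as a percentage of the counts on 2L outside the left-out stretches, and such shares sum to 100, so a higher share in one place is a lower one elsewhere. Over 156 windows of 6 kb the log2 shares of different libraries from the same viewpoint correlated at 0.94 to 0.99 (30 pairs), and those of the same library from the other viewpoint at 0.88 to 0.93 (6 pairs). All points share the fall with distance.

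The same windows of 2L were seen in different proportions from the ends of *dac*, and the difference had a side. Every window to the right is 22 kb nearer to PRE2, and every window to the left 22 kb nearer to gypsy2. The shares below therefore carry this difference in distance. To the right of both viewpoints, PRE2 had more contacts than gypsy2 in 57 of 78 windows and fewer in 0. To the left, PRE2 had more in 19 of 77 windows and fewer in 35, and the single window between the viewpoints was lower from PRE2. In all, 112 of 156 windows within 500 kb differed in edgeR's quasi-likelihood test with the library as a block at a Benjamini-Hochberg adjusted p under 0.05, which is 71.8% of the windows tested. Of all windows tested, 48.7% were higher from PRE2 and 23.1% were lower. Neighbouring windows are not independent. With TMM factors in place of the 2L total, the median log2 difference over all windows moved to 0.04, against 0.27, and 60 windows were higher and 56 lower.

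**Figure D1:**
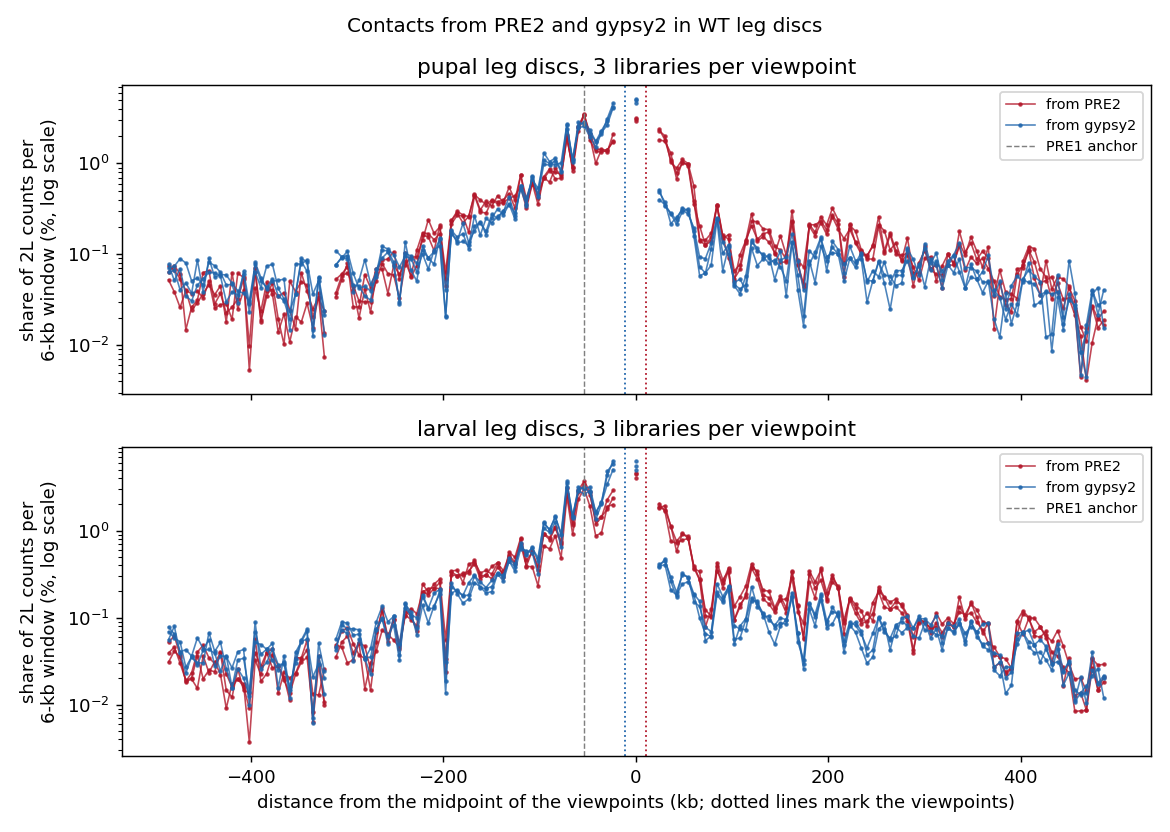
Share of 2L counts per 6-kb window (percent, log scale) against distance from the midpoint of the viewpoints (kb), with 1 line per library, pupal leg discs above and larval leg discs below. To the right the lines from PRE2 run above those from gypsy2, most of all next to the viewpoint, while to the left they cross near PRE1 and again further out.

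**Figure D2:**
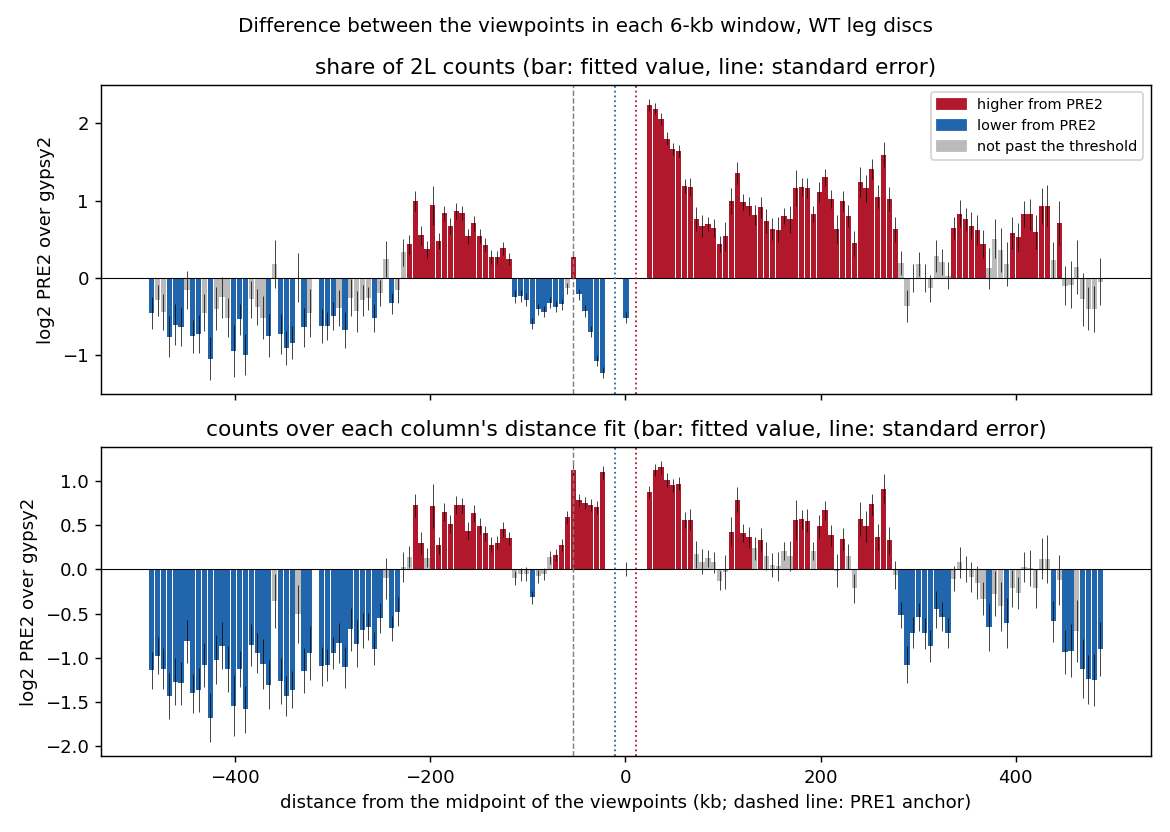
Fitted log2 of PRE2 over gypsy2 in each of 156 windows, for shares of 2L counts (upper panel) and for counts over each column's distance fit (lower panel), against distance from the midpoint of the viewpoints (kb), with standard errors. The 5 windows with the largest differences in share are consecutive and start at *Tpr2*, just right of PRE2.

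Of the genes around *dac*, the pair nearest on the right differed most. *Tpr2* (FBgn0032586, 16491540 to 16507621), which encodes a tetratricopeptide repeat protein, took 5.59, 4.76 and 5.61% of the 2L counts from PRE2 in pupal discs, against 1.19, 1.004 and 1.14% from gypsy2. In larval discs it took 5.13, 5.77 and 5.52% from PRE2, against 1.16, 1.05 and 1.08% from gypsy2. The lowest value from PRE2 was thus far above the highest from gypsy2. The paired log2 difference was 2.29 ± 0.10 (SD, n = 6 libraries), a 4.89-fold higher share, in 6 of 6 libraries (exact two-sided sign-flip p = 0.03125, the smallest that 6 pairs allow, and 0.044 after Benjamini-Hochberg adjustment over the 35 single values tested). All 25 single values at that smallest p have the same adjusted value. The middle of *Tpr2* is 12.5 kb from the PRE2 viewpoint and 34.5 kb from the gypsy2 viewpoint. A test of shares does not separate viewpoint from distance.

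*CG5953* (FBgn0032587, 16508078 to 16532877), the next gene, took 4.74, 4.86 and 4.99% from PRE2 in pupal discs, against 1.26, 1.32 and 1.24% from gypsy2. In larval discs the values were 4.18, 3.81 and 4.45% from PRE2, against 1.24, 1.09 and 1.30% from gypsy2. Its share was 3.62-fold higher from PRE2 (log2 1.86 ± 0.10, SD, n = 6, sign-flip p = 0.03125, exact). *mtgo* (FBgn0259735, 16545016 to 16663218), which encodes a fibronectin type III domain protein, averaged 3.55 ± 0.67% from PRE2 and 1.997 ± 0.245% from gypsy2 (SD, n = 6 libraries), and was 1.76-fold higher from PRE2 in 6 of 6 libraries. The excess was thus larger in the nearer genes. The middle of *CG5953* is 33 kb from the PRE2 viewpoint and 55 kb from the gypsy2 viewpoint, and that of *mtgo* 116.5 and 138.5 kb. By bands measured from the outer edge of the left-out stretch, the share from PRE2 was 4.73-fold that from gypsy2 at 0 to 20 kb, 3.04-fold at 20 to 50 kb, 1.68-fold at 50 to 100 kb, 1.91-fold at 100 to 200 kb and 1.51-fold at 200 to 450 kb, each in 6 of 6 libraries.

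The windows named by size fell in the same place. The 5 windows with the largest positive differences are the consecutive windows from 16498001 to 16528000, over *Tpr2* and *CG5953*. The first of them, 16498001 to 16504000 in *Tpr2*, held 2.04 ± 0.25% of 2L counts from PRE2 and 0.431 ± 0.055% from gypsy2 (SD, n = 6), a log2 difference of 2.24 ± 0.07 (SE, edgeR adjusted p = 2.7e-130). The fifth, 16522001 to 16528000 in *CG5953*, held 0.962 ± 0.115% from PRE2 and 0.301 ± 0.030% from gypsy2, a log2 difference of 1.67 ± 0.08 (SE, edgeR adjusted p = 1.6e-79). The fit shares its estimate of spread across windows, which is what lets 6 pairs give such values.

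The left-hand genes showed the opposite order close to the viewpoints. *Idgf1*, *Idgf2* and *Idgf3* (16445278 to 16455194), which encode imaginal disc growth factors, secreted proteins related to chitinases, took 2.55, 2.85 and 2.52% from PRE2 in pupal discs, against 5.85, 6.41 and 5.54% from gypsy2. In larval discs they took 3.48, 3.32 and 4.32% from PRE2, against 7.08, 8.97 and 8.89% from gypsy2. No value from PRE2 reached the lowest from gypsy2. The middle of this stretch is 37.5 kb from the PRE2 viewpoint and 15.5 kb from the gypsy2 viewpoint, so its share carries that difference in distance. The share from PRE2 was 0.445 times that from gypsy2 (log2 -1.17 ± 0.15, SD, n = 6, exact sign-flip p = 0.03125). The windows 16450001 to 16456000 (*Idgf2* and *Idgf3*) and 16444001 to 16450000 (*CG5888*, *Idgf1* and *Idgf2*) had the largest negative log2 differences of all windows, -1.23 ± 0.08 and -1.07 ± 0.07 (SE, edgeR adjusted p = 1.7e-50 and 2.6e-41). The other 3 windows named for a lower share lie between 16048001 and 16132000, over *beat-Ia*, a member of the beaten path family of cell adhesion proteins, *BicC*, an RNA-binding protein, and *CG45084* in one window and over no protein-coding gene in the other two. They held 0.019 to 0.038% of 2L counts from PRE2 and 0.039 to 0.069% from gypsy2 on average.

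*CG5888* as a whole took 15.5 ± 1.7% from PRE2 and 19.1 ± 2.1% from gypsy2 (SD, n = 6 libraries), a log2 difference of -0.30 ± 0.15 with the lower value from PRE2 in 6 of 6 libraries (exact sign-flip p = 0.03125). Its PRE1 window ran the other way in most libraries. The PRE1 window (16420001 to 16426000) took 3.41, 3.41 and 3.50% from PRE2 in pupal discs, against 2.69, 2.87 and 2.58% from gypsy2. In larval discs it took 3.42, 3.06 and 3.70% from PRE2, against 2.66, 3.14 and 3.03% from gypsy2, so that the larval groups overlapped. The share was higher from PRE2 in 5 of 6 libraries, the exception being larval replicate 2, and the log2 difference of 0.28 ± 0.16 (SD, n = 6) did not pass the exact sign-flip test (p = 0.0625, 0.081 adjusted). The window test called it (log2 0.28 ± 0.07, SE, edgeR adjusted p = 0.0004), with TMM factors it did not (log2 0.05, edgeR adjusted p = 0.65), and with the highest bins capped the mean difference was -0.07. Of the 16 windows from 16360001 to 16456000, PRE1 was the only one that this test called higher from PRE2, and 14 were called lower. This stretch was bounded by the runs of 9 and 5 windows that the same test called lower. The 14 lower calls were therefore fixed by that choice and are no separate evidence about PRE1.

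PRE1 is 64.5 kb from the PRE2 viewpoint and 42.5 kb from the gypsy2 viewpoint, so equal shares are not equal once distance is taken into account. A power law was therefore fitted to each column between 10 and 500 kb. Over that fit, the PRE1 window had a log2 excess of 2.54, 2.55 and 2.59 from PRE2 in pupal discs, against 1.40, 1.49 and 1.42 from gypsy2. In larval discs the excess was 2.46, 2.37 and 2.53 from PRE2, against 1.24, 1.45 and 1.32 from gypsy2. The groups did not overlap, and the paired difference was 1.12 ± 0.11 (SD, n = 6, exact sign-flip p = 0.03125). With bins capped it was 0.74, and with the fit limited to 10 to 200 kb it was 0.83. The excess was not limited to PRE1. All 5 windows beside it on the right, from 16426001 to 16456000, were lower from PRE2 by share. Over the distance fit all 5 were called higher from PRE2 (log2 0.70 to 1.10, median 0.75), and all 5 also with the fit from 10 to 200 kb.

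With the same fits as offsets in edgeR, 109 of 156 windows differed, 69.9% of those tested, 51 higher from PRE2 (32.7%) and 58 lower (37.2%). Right of both viewpoints 26 of 78 windows were higher and 18 lower (median log2 0.06 over all 78). Left of both, 25 of 77 were higher and 40 lower (median log2 -0.51 over all 77). The 5 windows with the largest positive values were on both sides of *dac*. They were 16504001 to 16510000 (*Tpr2* and *CG5953*), 16510001 to 16516000 and 16516001 to 16522000 (both *CG5953*), the PRE1 window, and 16450001 to 16456000 (*Idgf2* and *Idgf3*), at log2 1.12, 1.15, 1.01, 1.12 and 1.10 (SE 0.07 to 0.08). The last of these was lower from PRE2 by share and higher over the distance fit. The 5 largest negative values, -1.43 to -1.67 on the log2 scale, lay between 16006001 and 16132000, over *beat-Ia*, *beat-Ic*, *BicC*, *CG45084* and *CG31820* or over no protein-coding gene. These calls depend on the fit: limited to 10 to 200 kb, it gave 17 windows higher and 110 lower, and 12 windows were called in the opposite direction, while the direction of each window named here was the same.

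The fall with distance was shallower from PRE2 on both sides. On the left, the slope of log10 counts on log10 distance between 10 and 500 kb was -1.197, -1.22 and -1.18 from PRE2 in pupal discs, against -1.35, -1.38 and -1.33 from gypsy2. In larval discs it was -1.28, -1.29 and -1.34 from PRE2, against -1.41, -1.48 and -1.51 from gypsy2. The paired difference was 0.16 ± 0.02 (SD, n = 6, exact sign-flip p = 0.03125). On the right, the slopes were -1.09, -1.03 and -1.10 from PRE2 in pupal discs, against -1.29, -1.28 and -1.27 from gypsy2, and -1.001, -0.97 and -1.03 from PRE2 in larval discs, against -1.28, -1.27 and -1.35 from gypsy2. That difference was 0.26 ± 0.06 (SD, n = 6, exact sign-flip p = 0.03125). The direction held in other settings but the size did not. With 10 kb left out around each viewpoint the differences were 0.11 on the left and 0.11 on the right. With the fit limited to 10 to 200 kb they were 0.42 and 0.45. The left fit from PRE2 and the right fit from gypsy2 also lack the left-out stretch of the other viewpoint. The curves were not straight: from PRE2, the left side had a local maximum near the distance of PRE1, and from gypsy2 the mean of the right side was 0.633% per bin at 14.98 kb and 0.087% at 31.9 kb, on either side of PRE2.

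**Figure D3:**
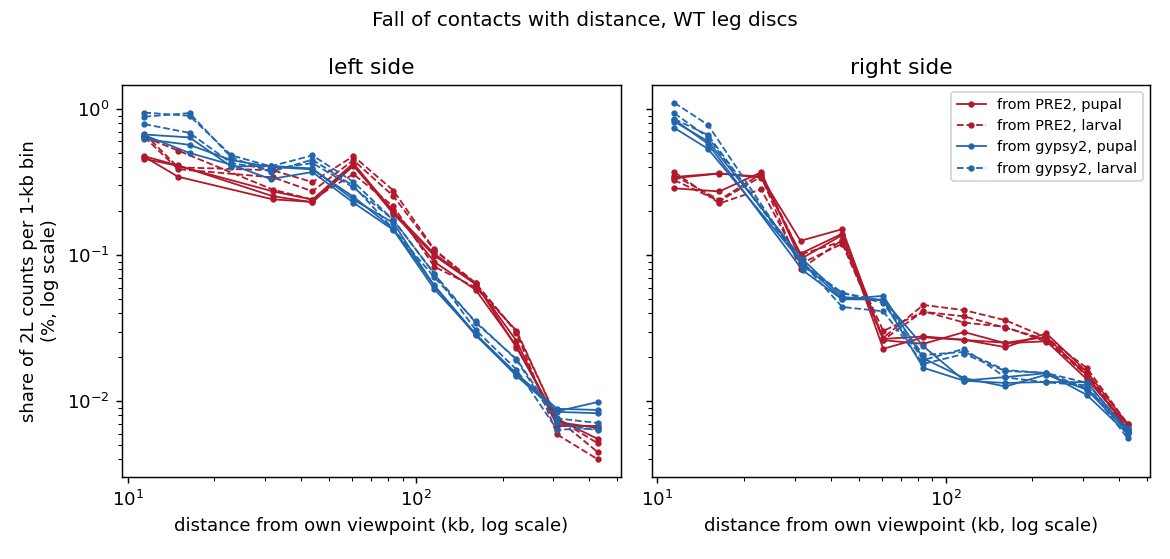
Share of 2L counts per 1-kb bin (percent, log scale) against distance from the own viewpoint (kb, log scale), on the left side and the right side, with 1 line per library. From gypsy2 the mean of the right side drops to 0.051% at 43.8 kb, against 0.883% at 11.4 kb, whereas from PRE2 the mean of the left side is 0.421% at 60.8 kb and 0.255% at 43.8 kb.

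The viewpoints were also set against each other at matched distances, a measure chosen after the values had been seen. Each viewpoint was followed past the other one, from 28.0 kb, where the left-out stretch of the other viewpoint ends, to 100 kb. These are 73 bins to the left for PRE2 and 73 bins to the right for gypsy2. Looking left past gypsy2, PRE2 had 0.265, 0.275 and 0.264% of the 2L counts per kb in pupal discs, whereas gypsy2, looking right past PRE2, had 0.042, 0.042 and 0.044%. In larval discs PRE2 had 0.317, 0.264 and 0.348% per kb and gypsy2 had 0.044, 0.038 and 0.042%. The lowest of the 6 values for PRE2 was thus several times the highest for gypsy2. The ratio was 6.87 (log2 2.78 ± 0.17, SD, n = 6, exact sign-flip p = 0.03125), and 6.26 without the bins of the PRE1 window. PRE2 was read to the left and gypsy2 to the right, over different DNA. The ratio therefore sets left against right as well as PRE2 against gypsy2, and viewpoint and side cannot be told apart in it.

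**Figure D4:**
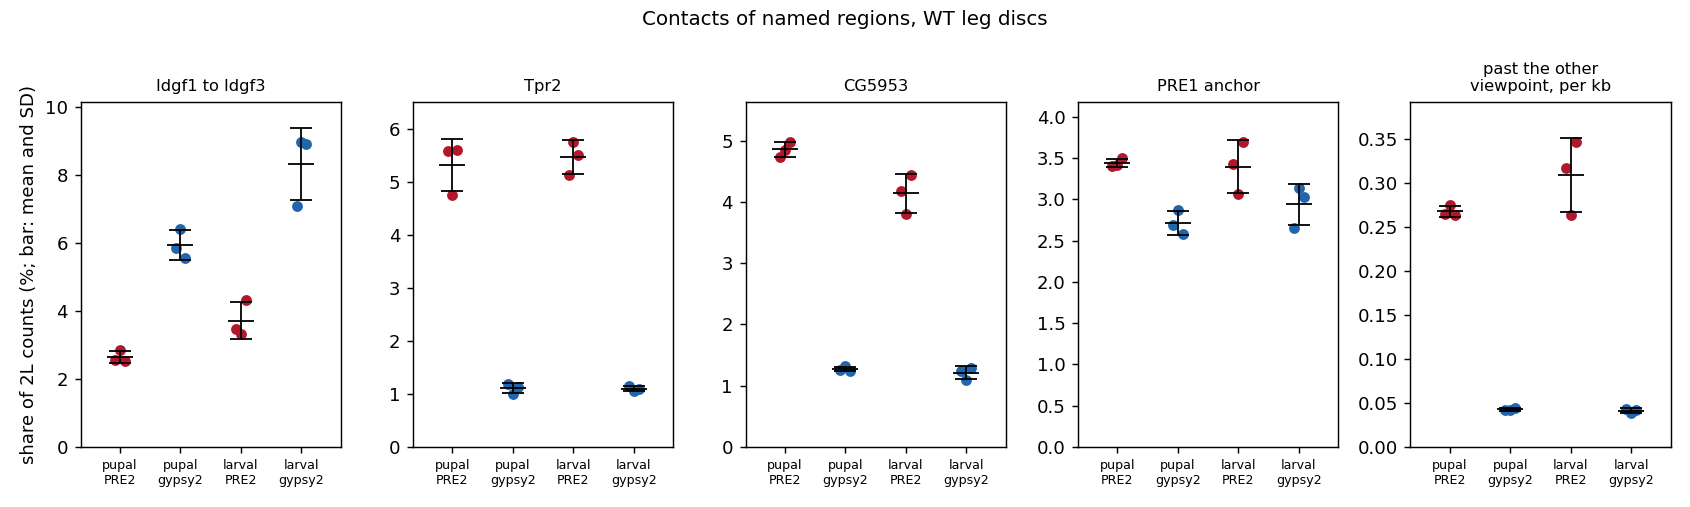
Share of 2L counts (percent) in *Idgf1* to *Idgf3*, *Tpr2*, *CG5953* and the PRE1 window, and mean share per kb past the other viewpoint, for each library by stage and viewpoint, with bars for the mean and SD of 3 libraries. PRE2 is above gypsy2 for *Tpr2*, *CG5953* and the contacts past the other viewpoint, and below it for *Idgf1* to *Idgf3*.

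Away from the other viewpoint the order was turned. On its outward side up to 100 kb, PRE2, facing right, had 0.124 ± 0.004% of 2L counts per kb and gypsy2, facing left, had 0.348 ± 0.040% (SD, n = 6), a ratio of 0.359 that was below 1 in 6 of 6 libraries. Viewpoint and side change together in this ratio too, so it does not separate them. Left of both viewpoints within 500 kb, PRE2 had 31.0 ± 2.9% and gypsy2 39.9 ± 4.0% of the 2L counts, and right of both PRE2 had 18.8 ± 0.6% and gypsy2 7.61 ± 0.26% (exact sign-flip p = 0.03125 for each). From both ends of *dac*, then, more contacts fell to the left. The log2 ratio of left over right counts per bin between 10 and 100 kb was 1.49 ± 0.20 from PRE2 and 1.65 ± 0.09 from gypsy2 (SD, n = 6), and the difference of -0.16 ± 0.19 did not pass the test (exact sign-flip p = 0.125). This difference was -0.37 between 10 and 50 kb and -1.33 with 10 kb left out around each viewpoint, in both cases at p = 0.03125 (exact sign-flip). The left-out stretch of the other viewpoint removes near bins only on the left of PRE2 and on the right of gypsy2. The sides were therefore not compared at the same distances, least of all with 10 kb left out. The difference in this ratio cannot be told apart from that loss.

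Between the viewpoints, in the 11 bins of *dac* that were kept, PRE2 had 5.07, 4.98 and 4.95% of 2L counts in pupal discs and gypsy2 had 8.67, 8.87 and 7.91%. In larval discs PRE2 had 6.46, 7.40 and 7.12% and gypsy2 had 9.001, 8.35 and 10.5%. The share was lower from PRE2 in 6 of 6 libraries (log2 -0.58 ± 0.24, SD, n = 6, exact sign-flip p = 0.03125), although the middle of this stretch is 11 kb from both viewpoints. Over the distance fit, the only 6-kb window that lies wholly in it had a log2 difference of 0.002 (edgeR adjusted p = 0.99), against -0.51 by share. Its distances to the viewpoints are nearly alike, so a difference in distance does not account for that shift. The offset also carries the level and slope of each column's own fit, here and wherever values over the distance fit are given.

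Further left, the difference changed sign along the chromosome. From 16360001 to 16414000, all 9 consecutive windows were lower from PRE2 (median log2 -0.34), over *CG5888* and *jhamt*, which encodes juvenile hormone acid methyltransferase. From 16252001 to 16360000, all 18 consecutive windows were higher from PRE2 (log2 0.25 to 0.99, median 0.54, higher in all 6 libraries in each window), although each is 22 kb further from PRE2 than from gypsy2. This stretch holds 28 annotated protein-coding genes, among them *cact*, the IκB homologue of the Toll pathway, *fzy*, an activator of the anaphase-promoting complex, and *twe*, a Cdc25 phosphatase of meiosis. These stretches were read off after the values had been seen. With TMM factors, 11 of the 18 windows and 9 of the 9 kept their call. Over the distance fit 16 of the 18 were higher from PRE2, but with the fit limited to 10 to 200 kb 0 were higher and 9 were lower. Of the 9, 7 were lower in all 6 libraries, and over the distance fit 1 was lower and 2 were higher (median log2 -0.06), against 8 lower with the fit limited to 10 to 200 kb. In the band of 100 to 200 kb left of the left-out stretch, PRE2 had 5.61, 5.47 and 4.98% of 2L counts in pupal discs and gypsy2 had 3.58, 3.60 and 3.52%. The larval values were 5.93, 5.59 and 5.91% from PRE2 and 4.43, 4.35 and 4.20% from gypsy2, without overlap, a ratio of 1.42. From 50 to 100 kb the ratio was 0.768, and from 200 to 450 kb it was 0.801, each below 1 in 6 of 6 libraries.

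The share of contacts within the chromosome did not separate the viewpoints. Of the counts outside the left-out stretches, 78.6, 76.6 and 78.4% were on 2L from PRE2 in pupal discs, against 78.6, 76.9 and 77.6% from gypsy2, and 80.4, 79.5 and 82.8% from PRE2 in larval discs, against 81.2, 80.4 and 83.6% from gypsy2. The difference was -0.34 ± 0.61 percentage points (SD, n = 6, exact sign-flip p = 0.1875). Within 500 kb lay 55.8 ± 3.8% of the 2L counts from PRE2 and 56.4 ± 4.8% from gypsy2 (exact sign-flip p = 0.5625, n = 6). Among the other chromosomes, 2R, 3L, 3R, X and Y took ratios of 0.983 to 1.03 between viewpoints, none past the test. Chromosome 4 took 0.348, 0.353 and 0.338% from PRE2 in pupal discs, against 0.343, 0.302 and 0.334% from gypsy2, and 0.319, 0.349 and 0.319% from PRE2 in larval discs, against 0.259, 0.312 and 0.244% from gypsy2. It was higher from PRE2 in 6 of 6 libraries, by 1.14-fold (exact sign-flip p = 0.03125). The groups overlapped in pupal discs and did not in larval discs.

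The left-out stretches themselves differed. Of all counts, 46.7, 43.7 and 42.1% lay within 5 kb of the own viewpoint bin from PRE2 in pupal discs, against 26.8, 30.9 and 24.5% from gypsy2. In larval discs these were 27.4, 28.0 and 29.9% from PRE2, against 21.7, 21.7 and 27.7% from gypsy2. The share was higher from PRE2 in 6 of 6 libraries, by 16.8 ± 3.6 percentage points in pupal discs and by 4.73 ± 2.22 in larval discs (SD, n = 3 each). The stretch around the other viewpoint took 2.51 ± 0.49% of the remaining counts from PRE2 and 3.37 ± 0.18% from gypsy2 (SD, n = 6), lower from PRE2 in 6 of 6 libraries.

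**Figure D5:**
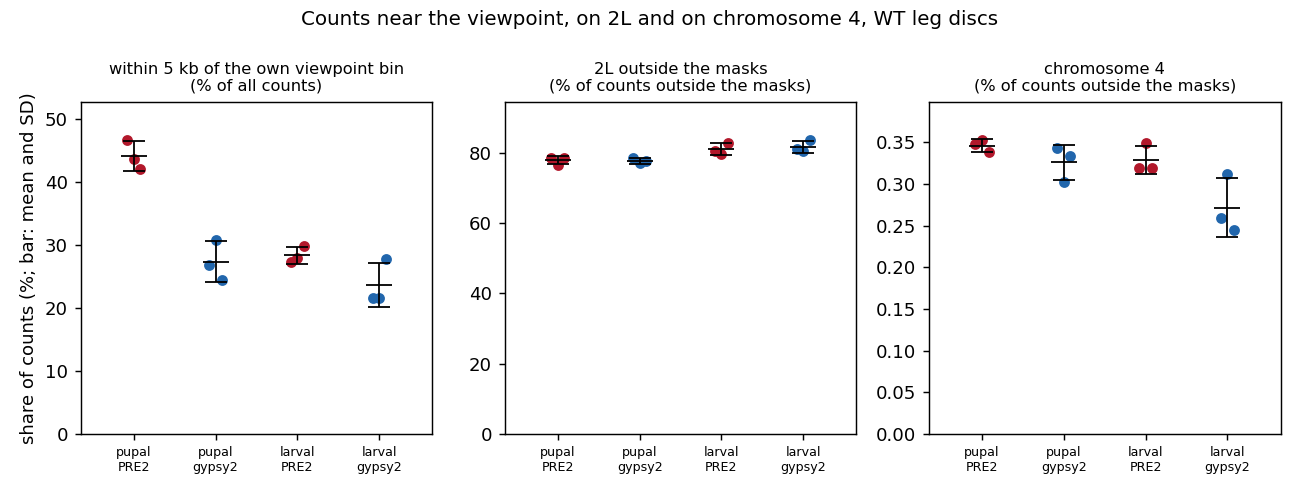
Percent of counts within 5 kb of the own viewpoint bin, on 2L outside the left-out stretches and on chromosome 4, for each library by stage and viewpoint, with bars for the mean and SD of 3 libraries. The pupal PRE2 columns, at 42.1 to 46.7%, stand above all others in the first panel, and the 2L shares of the viewpoints overlap in each stage.

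The difference between viewpoints was compared between pupal and larval discs. The interaction of viewpoint and stage passed the threshold in 0 of 156 windows (0% of those tested, edgeR, 0 with TMM factors as well), with 11 windows at an unadjusted p under 0.05 and the smallest adjusted p at 0.52. For *Tpr2* the log2 difference was 2.26 ± 0.03 in pupal discs and 2.32 ± 0.15 in larval discs, and for *Idgf1* to *Idgf3* it was -1.17 ± 0.03 in pupal and -1.17 ± 0.23 in larval discs (SD, n = 3 each). For *CG5953* the values were 1.93 ± 0.06 in pupal and 1.78 ± 0.03 in larval discs, and between the viewpoints -0.76 ± 0.08 in pupal and -0.40 ± 0.20 in larval discs. Of the 35 single values, 12 had a stage difference at p = 0.1 in an exact two-sided permutation test, the smallest that 3 against 3 libraries allow, and 0.292 after Benjamini-Hochberg adjustment. They were the shares of *CG5953*, between the viewpoints, around each viewpoint, past the other viewpoint and on the outward side, those of the left bands from 100 to 200 and from 200 to 450 kb, the right-hand slope, and the shares of 2L, 2R and 3R. The log2 ratio past the other viewpoint was 2.66 ± 0.07 in pupal and 2.90 ± 0.14 in larval discs, and the difference in the 2L share was 0.11 ± 0.56 percentage points in pupal and -0.79 ± 0.07 in larval discs (SD, n = 3 each).

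Other libraries of the series give a scale for these differences. In 3 WT embryo libraries, the log2 difference right of both viewpoints was smaller than in leg discs, 1.31 ± 0.06 in leg discs and 1.10 ± 0.08 in embryos (exact permutation p = 0.012, 0.029 adjusted over 22 comparisons, n = 6 and 3), while the ratio past the other viewpoint was 2.78 ± 0.17 in leg discs and 2.90 ± 0.13 in embryos on the log2 scale (exact permutation p = 0.32). The embryo columns held 800269 to 1461167 counts, fewer than any leg disc column. In 6 leg disc libraries labelled with the gypsy2 insertion, the PRE1 share was lower from PRE2 than from gypsy2: the log2 difference was 0.28 ± 0.16 in WT discs and -0.65 ± 0.31 in discs with the insertion (exact permutation within stage, p = 0.005, the smallest it allows, 0.016 adjusted). The values of WT and insertion libraries did not overlap.

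Empty bins were largely shared between viewpoints. Of 957 bins within 500 kb, 77 were empty in all 6 PRE2 columns and 78 in all 6 gypsy2 columns, and 64 of these were the same, which is 83.1% of the first and 82.1% of the second. Of the 64, 64.1% had no GATC in the dm6 reference, a palindrome cut by several enzymes used in 4C-seq, against 15.3% of the other 893 bins. The enzymes used were not stated in the labels or the methods.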

How the data were processed

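Raw 4C-seq counts per 1-kb bin of dm6, not normalized, were deposited in 6 tables. Per the labels the reads were aligned with Bowtie to dm6; its version, the restriction enzymes, read filters and any removal of PCR copies were not stated. The last bin of 2L ends within 1 base of the 2L length of the reference. Columns were matched to samples by stage, genotype and number. Of 48 columns 30 were used, 12 of them in the main comparison, and 18 embryo columns were not used.

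Viewpoint bins and 5 kb around them were left out. Windows of 6 kb were tiled from PRE1, and 156 of 157 within 500 kb passed a mean count of 10. Counts were tested with edgeR 4.0.16 in R 4.3.3 (quasi-likelihood, library size the 2L total, library as block), or with offsets from a power law fitted in 12 distance bins between 10 and 500 kb, on both sides together. DESeq2 1.42.0 was an alternative. Single values were compared by exact sign-flip and permutation tests in Python 3.11.15 with numpy 2.4.6. The window test and the decay fit were tested on simulated data.

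Both columns of a pair come from 1 labelled sample, and their deviations from the stage means correlated at 0.02 to 0.24 within a library and at -0.26 to 0.06 between libraries. No replicate pair agreed within sampling noise (chi-square per degree of freedom at least 46.2). Named windows were the 5 highest and 5 lowest past the threshold with 1 direction in all 6 libraries, in each window test, beside the PRE1 window and the genes around *dac*. Members, lists, bands and tests were chosen with earlier results of these data known.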

Additional observations from a re-analysis of the deposited data

Results flagged for a closer look

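Each result here is a difference between groups in the PRE2 minus gypsy2 contrast, with exact permutation tests adjusted over 22 comparisons. Right of both viewpoints, the log2 difference between viewpoints was 0.21 higher in WT leg discs than in WT embryos (exact permutation p = 0.012, 0.029 adjusted, 6 and 3 libraries), and the embryo columns were shallower. The part of depth in this was not tested.

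The others set WT leg discs against leg discs with the gypsy2 insertion, within stage, 6 libraries each. The WT value minus the insertion value was 1.02 for the log2 ratio of left over right counts, 0.93 for the log2 PRE1 share, 0.61 for the log2 share left of both viewpoints and 0.42 for the log2 ratio past the other viewpoint. It was -0.75 for the log2 share between the viewpoints, -0.33 for that right of both, -0.37 for that in the first 20 kb on the right, and -0.058 for the left decay slope. The adjusted p was 0.028 for the slope and 0.016 for each of the rest (exact permutation, p = 0.005, the smallest it allows, for all but the slope at 0.01).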

How the results depend on the processing

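Shares from 12 kb windows gave 65 calls and distance-adjusted ones 63, of 77 windows in place of 156. Leaving out 1 library gave 104 to 111 calls by share, 99 to 110 over the distance fit and 0 to 0 for the interaction with stage. TMM factors and DESeq2's own size factors gave 60 and 57 windows higher by share and 56 and 58 lower, against 76 and 36, whereas DESeq2 with the 2L total gave 77 higher and 39 lower, and all windows of 2L gave 96 calls among 3772. The fit from 10 to 200 kb gave 127 calls over distance, 110 of them lower from PRE2. Without the library as a block the counts were 112 and 107. The cis difference was 0.20 with a 10 kb mask and 0.11 in pupal discs, against -0.34. The PRE1 log2 share difference was -0.073 with bins capped (exact sign-flip p = 0.22), 0.29 as a share of 2L within 500 kb (p = 0.03125) and 0.28 with no replicate block (exact permutation p = 0.0043). The side ratio passed with bins capped (-0.33), a 10 kb mask (-1.33) and 10 to 50 kb (-0.37). The mask of the other viewpoint removes bins only from the side facing it, so this ratio does not compare the sides at matched distances. The causes of these shifts were not tested.

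With 3 libraries the smallest sign-flip p is 0.25, and with 5 it is 0.0625, so no value can pass in 1 stage or without 1 library. In pupal discs and in larval discs the differences were 0.16 and 0.16 for the left slope, 0.21 and 0.30 for the right slope, and 1.12 and 1.11 for PRE1 over the fit. By log2 share they were -0.76 and -0.40 between the viewpoints, -0.25 and -0.35 for *CG5888*, -1.17 and -1.17 for *Idgf1* to *Idgf3*, 2.26 and 2.32 for *Tpr2*, 1.93 and 1.78 for *CG5953*, 0.73 and 0.90 for *mtgo*, -0.31 and -0.41 left of both, and 1.31 and 1.30 right of both. Without 1 library the ranges were -0.56 to -0.23 (cis share), 0.15 to 0.17 (left slope), 0.24 to 0.27 (right slope), -0.21 to -0.13 (side ratio), 0.24 to 0.34 (PRE1 share), 1.10 to 1.16 (PRE1 over the fit), -0.66 to -0.53 (between), -0.32 to -0.24 (*CG5888*), -1.20 to -1.11 (*Idgf1* to *Idgf3*), 2.26 to 2.32 (*Tpr2*), 1.83 to 1.88 (*CG5953*), 0.77 to 0.85 (*mtgo*), -0.38 to -0.32 (left) and 1.29 to 1.33 (right). Pupal and larval libraries share only replicate numbers, whose deviations correlated at -0.17 to -0.02. With that number as a replicate block the stage differences had p = 0.25 to 1 (exact sign-flip).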
